A study of Homo sapiens with 9 samples.

Results

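The 10 gliogenic and astrocyte genes NFIA, NFIB, NFIX, GFAP, FABP7, S100B, AQP4, TNC, HOPX and AGT were taken by gene symbol out of 31589 genes held by at least 1 of the 3 deposited tables. They were examined in human spinal cord organoids (SCOs), 3-dimensional cultures of neural tube derived tissue grown from the WTC induced pluripotent stem cell line. Bulk RNA sequencing of whole SCOs gave 9 libraries, 3 from each of 3 groups. Vehicle SCOs received FGF alone, VPA SCOs received FGF with valproic acid, an inhibitor of histone deacetylases, and VPA+Rapamycin SCOs received FGF and valproic acid with Rapamycin, an inhibitor of the mTOR kinase. Exposure lasted 96 h in all groups according to the labels, which give the genotype of every library as WT. The study's own text gives a shorter exposure and more than 1 dose of VPA, so no dose is given here. The study describes WTC cells edited to carry a reporter cassette in the SOX10 locus, with organoids of a clone pooled for sequencing and separate clones as replicates. Equal replicate numbers share a code in the labels, which do not tie a code to a clone. The p-values measure the spread between these libraries of 1 cell line.

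Nuclear factor I proteins (NFIA, NFIB, NFIX) are transcription factors that act with SOX9 when progenitors of the neural tube stop making neurons and begin to make glia. Radial glia are the progenitors that span the neural epithelium, and FABP7, TNC and HOPX are genes they use. Astrocytes arise later and are recognised by GFAP, S100B, AQP4 and AGT, although S100B is also known from Schwann cells and TNC from mesenchyme. In early spinal cord tissue radial glia are therefore plentiful while mature astrocytes are rare.

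Libraries held 15290436 to 17417478 reads counted on genes, and 3 reads corresponded to between 0.172 and 0.196 CPM (reads of a gene scaled to library size). Replicates of 1 group differed by more than counting noise (chi-square divided by the number of genes 4.75 to 39.1), and the largest value was between Vehicle replicates 1 and 3. Vehicle replicate 3 stood apart from the other Vehicle libraries in markers of other cell types. It held 307 reads of the neural crest factor TFAP2B against 2 in each of the others, 53 reads of the mesenchymal factor PRRX1 against 0 in each, and the highest summed level of 12 neuron markers (3040 CPM against 1692 and 2231 CPM). Results that rest on this library are given with and without it. The label of neural tissue was checked against 12 neural progenitor markers, which summed to between 2744 and 3510 CPM, with SOX2 at 4021 to 5077 reads. Microglial and endothelial markers together summed to 2.07 to 5.53 CPM. AIF1, CSF1R, PECAM1 and CDH5 had at most 17 reads in any library, while the endothelial junction gene CLDN5 had 19 to 81 reads. CLDN5 was higher with VPA+Rapamycin than in Vehicle (log2 fold change 1.28, SE 0.36, edgeR adjusted p = 0.0316), a call lost without Vehicle replicate 1 or any VPA+Rapamycin library.

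RefSeq promoter sequences (GRCh38.p14, 250 bases before to 50 bases after a start site) were found for 8 of the 10 genes, with no entry for GFAP and S100B. FABP7, TNC and HOPX are printed because FABP7 is the most abundant of the 10 genes and TNC and HOPX had the smallest p-values against Vehicle after VPA. HOPX has 2 entries, an upstream start and a downstream start. Each is written 5′ to 3′ along the gene, and capitals mark the core motif of the NFI proteins (TTGGC on either strand) or, in TNC, also an RBPJ motif (TGGGAA), the sequence bound by the DNA-binding partner of Notch.
FABP7, chr6:122779466-122779765, plus strand: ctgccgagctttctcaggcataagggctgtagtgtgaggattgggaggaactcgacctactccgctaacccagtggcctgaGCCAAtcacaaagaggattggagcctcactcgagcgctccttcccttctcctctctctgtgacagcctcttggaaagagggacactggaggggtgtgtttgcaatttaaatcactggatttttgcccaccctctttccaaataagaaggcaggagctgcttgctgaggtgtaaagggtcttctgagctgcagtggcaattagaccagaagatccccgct
TNC, chr9:115118108-115118407, minus strand: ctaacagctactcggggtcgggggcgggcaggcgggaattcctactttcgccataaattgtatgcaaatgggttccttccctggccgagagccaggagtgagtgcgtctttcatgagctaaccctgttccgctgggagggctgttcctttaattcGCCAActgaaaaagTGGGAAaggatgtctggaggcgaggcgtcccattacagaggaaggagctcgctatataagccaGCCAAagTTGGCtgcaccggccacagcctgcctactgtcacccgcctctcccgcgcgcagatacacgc
HOPX upstream start, chr4:56681247-56681546, minus strand: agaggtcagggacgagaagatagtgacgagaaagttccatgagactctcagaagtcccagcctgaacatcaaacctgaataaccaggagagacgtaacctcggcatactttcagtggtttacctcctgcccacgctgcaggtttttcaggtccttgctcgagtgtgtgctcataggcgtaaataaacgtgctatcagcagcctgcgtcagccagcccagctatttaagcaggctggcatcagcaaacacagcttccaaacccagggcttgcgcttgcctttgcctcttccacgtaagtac
HOPX downstream start, chr4:56656468-56656767, minus strand: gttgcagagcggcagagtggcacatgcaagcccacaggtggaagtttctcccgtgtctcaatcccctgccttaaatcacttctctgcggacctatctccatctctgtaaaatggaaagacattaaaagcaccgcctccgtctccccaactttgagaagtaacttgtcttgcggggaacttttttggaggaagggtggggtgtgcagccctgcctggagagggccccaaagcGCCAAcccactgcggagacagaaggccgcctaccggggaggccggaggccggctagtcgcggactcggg

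The promoter of TNC held 3 NFI core motifs, beginning at positions -95, -18 and -11 from the start site, and the last pair lay on opposite strands. The promoter of FABP7 held 1 core motif at position -169. At HOPX the downstream start had 1 core motif at -19 and the upstream start had 0. Of the 26 promoters of the 8 genes, 13 held at least 1 core motif. These promoters are not separate units. NFIB supplied 10 of the 26, and the NFIX entries that begin at 13024329 and 13024331 share the same motif. Such short motifs are common, since 45.6% of 35116 RefSeq promoters of the same length held at least 1, and 3.82% held 3 or more. No member promoter held AP-1 (TGANTCA, found in 7.71% of promoters) or the full NFI palindrome (0.0285%). STAT (TTCNNNGAA, 7.66%) matched in AQP4 and AGT, and RBPJ (24.0%) matched in NFIB, TNC and AGT. Both strands were searched for every motif. These matches describe letters only, and no binding was measured.

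On the per-length scale of the authors' FPKM, FABP7, the brain fatty acid binding protein of radial glia, stood far above the other 9 genes. Its level ranged from 41.6 to 88.5 FPKM over the 9 libraries, above 98.5% of all genes by its mean. Next came S100B (mean 0.812 FPKM), HOPX (0.563 FPKM) and TNC (0.406 FPKM). AGT, NFIA, NFIB and GFAP followed at mean levels between 0.0738 and 0.105 FPKM, and NFIX (0.0307 FPKM) and AQP4 (0.0206 FPKM) were the lowest. This order is by the mean over all libraries and differed between groups. With VPA+Rapamycin, HOPX (0.532 FPKM) stood above S100B (0.474 FPKM) and NFIA (0.122 FPKM) above AGT (0.0707 FPKM), while with VPA S100B had its highest mean (1.56 FPKM). The lowest FABP7 library was above the highest library of S100B (1.90 FPKM), while every other pair of neighbours in this order overlapped in range.

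**Figure D1:**
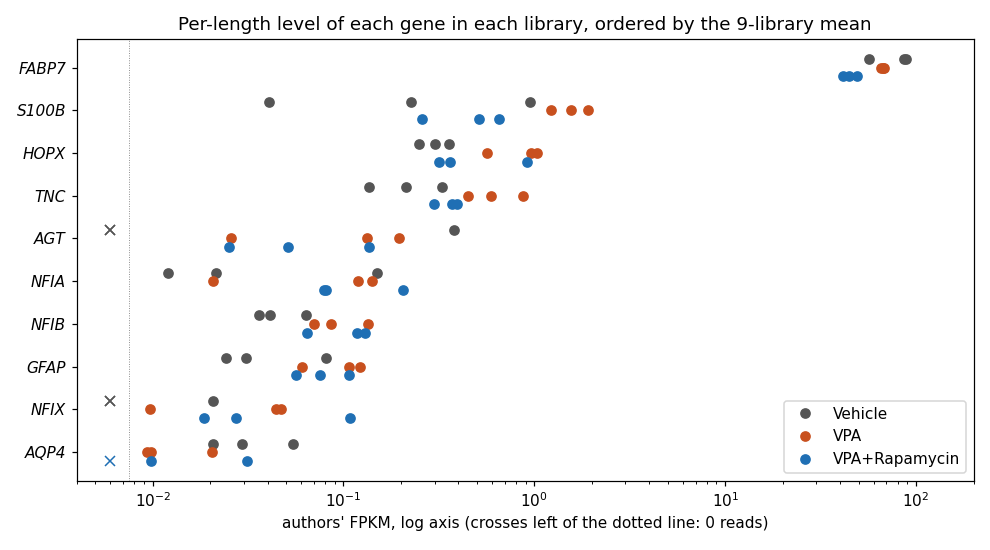
Authors' FPKM (log axis) of each of the 10 genes in each library, one row per gene, ordered by the mean over the 9 libraries, with points coloured by group and libraries at 0 reads drawn as crosses at the left edge. FABP7 lies between 41.6 and 88.5 FPKM in every library, and the highest value of any other gene is 1.90 FPKM.

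The defining genes of mature astrocytes were thus scarce in every group. GFAP, the intermediate filament of astrocytes, had between 5 and 25 reads per library. AQP4, the water channel of astrocyte end feet, had at most 5 reads, and 8 of 9 libraries held 3 or fewer. AGT, which encodes angiotensinogen, the angiotensin precursor that astrocytes secrete, had at most 14 reads, with 5 of 9 libraries at 3 or fewer. NFIX had at most 11 reads and was at or under 3 in 6 of 9 libraries. AQP4, AGT and NFIX did not pass the filter on low counts in any comparison, which left 7 of the 10 genes to be tested.

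Groups were compared in pairs with edgeR's quasi-likelihood test on the counts, and Benjamini-Hochberg adjustment ran over every tested gene, with calls made at 0.05. With VPA against Vehicle, 3 of the 7 tested genes were higher (HOPX, TNC and S100B) and 0 were lower, where 16.4% of 17360 genes were higher and 15.7% were lower. Adding Rapamycin to VPA left 0 higher and 2 lower (FABP7 and S100B), where 3.01% of 17317 genes were higher and 3.73% were lower. VPA+Rapamycin against Vehicle gave 0 higher and 1 lower (FABP7), where 9.81% of 17383 genes were higher and 9.22% were lower. At an unadjusted p under 0.05, the counts in edgeR were 0 lower in the first comparison, 0 higher in the second and 1 higher in the third (NFIB), and DESeq2 called 0 in each of these directions. The median log2 fold change of the tested genes was 1.09, -0.55 and 0.83 in the 3 comparisons, and that of all tested genes was near 0 in each (-0.0030, 0.0039 and -0.0009). A gene low in 1 group can pass the filter through the other group alone, so these counts and medians describe only the genes that passed. Each pair of comparisons shares 3 libraries, and they are not independent of each other. In bulk RNA, fewer cells of a type and less RNA per cell cannot be told apart.

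**Figure D2:**
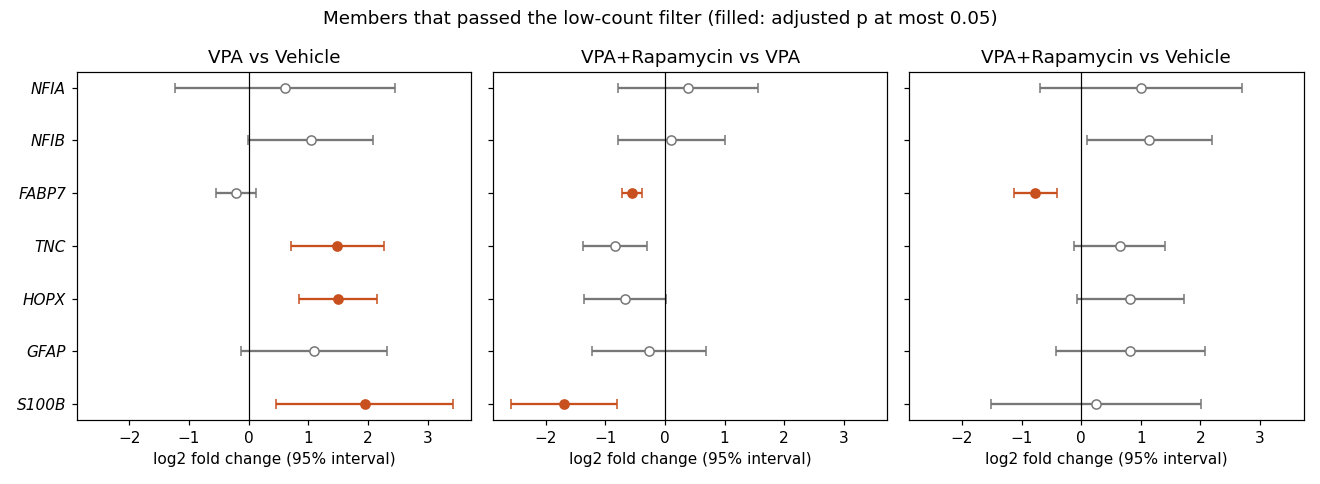
Log2 fold change with its 95% confidence interval from edgeR for the 7 genes that passed the filter, one panel per comparison, where filled points mark an adjusted p of at most 0.05. HOPX, TNC and S100B lie above 0 with VPA against Vehicle, and FABP7 and S100B lie below 0 with VPA+Rapamycin against VPA.

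NFIA, the factor most closely tied to the onset of gliogenesis, varied more within groups than between them. Its reads numbered 4, 2 and 26 in Vehicle replicates 1 to 3, 22, 25 and 4 in the VPA libraries, and 15, 15 and 36 in the VPA+Rapamycin libraries. One Vehicle library was high and one VPA library was low, and the groups overlapped in every comparison. The log2 fold change was 0.61 (SE 0.84, edgeR adjusted p = 0.618) with VPA against Vehicle, 0.39 (SE 0.56, adjusted p = 0.74) with VPA+Rapamycin against VPA, and 1.00 (SE 0.77, adjusted p = 0.397) with VPA+Rapamycin against Vehicle. Vehicle replicate 3 decided the first and the last of these. Without it the log2 fold change was 2.40 (adjusted p = 0.0387) with VPA and 2.79 (adjusted p = 0.0184) with VPA+Rapamycin, both against Vehicle. The noncoding gene AC099792.1, which overlaps NFIA on the opposite strand, had a mean count of 2.67 against 16.6 for NFIA, and strand use in counting was not given, so some of these reads may be shared.

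NFIB, which acts with NFIA in gliogenesis, was low in Vehicle SCOs at 9, 7 and 13 reads. The VPA libraries held 29, 18 and 16 reads and the VPA+Rapamycin libraries held 14, 29 and 24. Every library of both treated groups was above every Vehicle library in CPM, but neither difference passed the test. The log2 fold change was 1.04 (95% interval -0.01 to 2.08, adjusted p = 0.118) with VPA and 1.14 (0.09 to 2.20, adjusted p = 0.119) with VPA+Rapamycin, both against Vehicle. Between the treated groups it was 0.11 (-0.79 to 1.01, adjusted p = 0.921).

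NFIX had 0, 2 and 0 reads in Vehicle, 5, 1 and 5 with VPA, and 2, 3 and 11 with VPA+Rapamycin. The Vehicle total of 2 reads was below the floor of 3, and the ranges overlapped in all comparisons. In a fit without the filter the adjusted p was 0.416, 0.849 and 0.256 for VPA against Vehicle, VPA+Rapamycin against VPA and VPA+Rapamycin against Vehicle. NFIC, the remaining gene of the family, was called in both comparisons with Vehicle. It had 28, 35 and 23 reads in Vehicle, 72, 47 and 83 with VPA, and 63, 60 and 62 with VPA+Rapamycin. Its log2 fold change was 1.14 (SE 0.32, adjusted p = 0.0204) with VPA and 1.04 (SE 0.30, adjusted p = 0.0333) with VPA+Rapamycin, and both treated groups lay above Vehicle in every library. The call with VPA was lost without VPA replicate 1 (adjusted p = 0.0719) or replicate 3 (0.0897). The call with VPA+Rapamycin was lost without any 1 of 5 of the 6 libraries, with adjusted p from 0.0537 to 0.106 and log2 fold changes from 0.90 to 1.09, and was kept without Vehicle replicate 2. Of the 4 NFI genes, 3 were tested and 1 was called higher in each of these 2 comparisons, and 0 were called with VPA+Rapamycin against VPA.

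**Figure D3:**
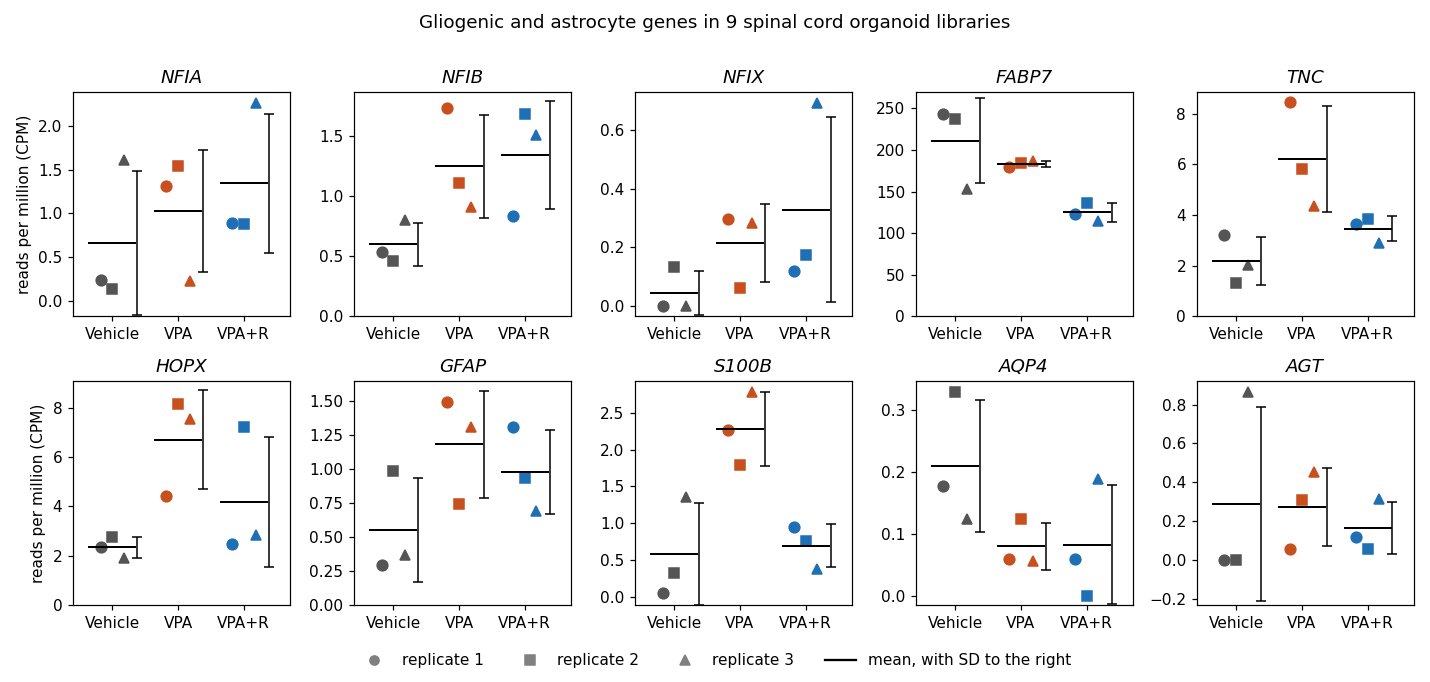
TMM-scaled CPM of each gene in each library, by group, with the mean as a horizontal bar and the SD (n = 3) to its right (VPA+R, VPA+Rapamycin; vertical scales differ between panels). HOPX, TNC and S100B are highest in the VPA group with no overlap with Vehicle, FABP7 is lowest in all 3 VPA+Rapamycin libraries, and Vehicle replicate 3 (triangle) is the highest Vehicle library for NFIA, S100B and AGT.

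FABP7 was the only abundant gene of the set and gave the most precise estimates. Vehicle libraries held 4113, 3610 and 2468 reads (211 ± 50.8 CPM, SD, n = 3), VPA libraries 3010, 2993 and 3282 (184 ± 3.46 CPM), and VPA+Rapamycin libraries 2075, 2343 and 1822 (125 ± 10.9 CPM). The 3 VPA+Rapamycin libraries were the lowest of all 9, and they overlapped with neither other group. FABP7 fell by 0.55 on the log2 scale with VPA+Rapamycin against VPA (SE 0.077, edgeR adjusted p = 0.000292), to 0.682 times its level, and ranked 54 by p among 17317 genes. The interval of this change, -0.71 to -0.39, was narrow. In 1 fit of all 9 libraries, however, the estimate was -0.56 with an adjusted p of 0.0962.

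Against Vehicle, FABP7 fell by 0.77 on the log2 scale with VPA+Rapamycin (SE 0.16, adjusted p = 0.0102), to 0.588 times its level. This call was lost without VPA+Rapamycin replicate 1 (adjusted p = 0.0537) or replicate 3 (adjusted p = 0.0522), while the estimates stayed at -0.75 and -0.70. With VPA alone the log2 fold change was -0.21 (95% interval -0.55 to 0.12, adjusted p = 0.314), which did not pass. Vehicle replicate 3 had the lowest FABP7 level of its group at 153 CPM, against 243 and 238 CPM in the others. Without this library FABP7 was lower with VPA too (log2 fold change -0.39, adjusted p = 0.00199), and the value with VPA+Rapamycin was -0.95 (adjusted p = 4.27e-05).

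TNC encodes tenascin-C, a glycoprotein of the extracellular matrix around radial glia. It had 54, 20 and 33 reads in Vehicle (2.18 ± 0.946 CPM, SD, n = 3), 142, 94 and 77 with VPA (6.22 ± 2.09 CPM), and 61, 66 and 46 with VPA+Rapamycin (3.46 ± 0.495 CPM). The VPA libraries were above all other libraries. TNC rose 2.80-fold with VPA against Vehicle (log2 fold change 1.49, SE 0.36, edgeR adjusted p = 0.00913), and the call was narrowly lost without VPA replicate 1 (log2 fold change 1.21, adjusted p = 0.0526). For VPA+Rapamycin against VPA it was -0.84 (SE 0.26), which missed the threshold (adjusted p = 0.057) although the 2 groups did not overlap. A fit blocked on replicate number gave an adjusted p of 0.0348, without the filter it was 0.0131, and without VPA replicate 3 it was 0.0288. The other 8 of 11 alternatives also missed the threshold. Among them were the fits without VPA replicate 1 (log2 fold change -0.55, adjusted p = 0.297) and of all 9 libraries at once (adjusted p = 0.269). With VPA+Rapamycin against Vehicle the log2 fold change was 0.65 (95% interval -0.12 to 1.41, adjusted p = 0.219), and these groups overlapped.

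HOPX encodes a homeodomain protein without DNA binding that is used by radial glia of the outer progenitor zone in cortex. Its reads numbered 40, 42 and 31 in Vehicle (2.35 ± 0.425 CPM, SD, n = 3), 74, 132 and 133 with VPA (6.71 ± 2.00 CPM), and 42, 124 and 45 with VPA+Rapamycin (4.18 ± 2.63 CPM). All VPA libraries were above all Vehicle libraries, while the VPA+Rapamycin group held 1 library at the VPA level and 2 near the Vehicle level. HOPX rose 2.83-fold with VPA against Vehicle (log2 fold change 1.501, SE 0.30, edgeR adjusted p = 0.00326), and this call was kept without each library in turn and in every other alternative. With VPA+Rapamycin against VPA the log2 fold change was -0.67 (95% interval -1.36 to 0.01, adjusted p = 0.244). VPA+Rapamycin replicate 2 decided this value, and without it the log2 fold change was -1.33 (adjusted p = 0.0104). A fit blocked on replicate number gave -0.76 (adjusted p = 0.0439). The other 9 of 11 alternatives also missed the threshold. Their adjusted p was 0.456 in 1 fit of all 9 libraries and 0.558 without VPA+Rapamycin replicate 3. With VPA+Rapamycin against Vehicle the log2 fold change was 0.83 (-0.07 to 1.73, adjusted p = 0.182), and 0.18 (adjusted p = 0.796) without VPA+Rapamycin replicate 2.

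S100B, a calcium-binding protein of astrocytes and Schwann cells, had the largest fold changes of the 7 tested genes with VPA against Vehicle and with VPA+Rapamycin against VPA. Vehicle libraries held 1, 5 and 22 reads (0.583 ± 0.687 CPM, SD, n = 3), VPA libraries 38, 29 and 49 (2.28 ± 0.498 CPM), and VPA+Rapamycin libraries 16, 13 and 6 (0.696 ± 0.292 CPM). The VPA libraries did not overlap with those of either other group. S100B rose with VPA against Vehicle by a log2 fold change of 1.94 (SE 0.68, 3.85-fold, edgeR adjusted p = 0.0467). That call was close to the threshold and was lost without any 1 of 5 of the 6 libraries, with adjusted p from 0.0605 to 0.15 and log2 fold changes from 1.40 to 2.09. Without Vehicle replicate 3, which held 22 of the 28 Vehicle reads, the log2 fold change was 3.54 (adjusted p = 0.000396).

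When Rapamycin was added to VPA, S100B fell by 1.70 on the log2 scale (SE 0.42, adjusted p = 0.021), to 0.309 times its level. The adjusted p was 0.0689 without VPA replicate 1, 0.1 without VPA replicate 3, 0.104 without VPA+Rapamycin replicate 3 and 0.271 in 1 fit of all 9 libraries, with log2 fold changes between -1.70 and -1.41. Against Vehicle, the log2 fold change with VPA+Rapamycin was 0.25 (95% interval -1.51 to 2.00, adjusted p = 0.86). Without Vehicle replicate 3 it was 1.84 (adjusted p = 0.149).

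GFAP had 5, 15 and 6 reads in Vehicle, 25, 12 and 23 with VPA, and 22, 16 and 11 with VPA+Rapamycin. The groups overlapped in every comparison. Its log2 fold change was 1.09 (95% interval -0.13 to 2.32, edgeR adjusted p = 0.156) with VPA against Vehicle, -0.27 (-1.22 to 0.69, adjusted p = 0.788) with VPA+Rapamycin against VPA, and 0.83 (-0.42 to 2.07, adjusted p = 0.339) with VPA+Rapamycin against Vehicle. At 5 to 25 reads the intervals are wide, and the first of them holds both 0 and the change of 1.501 measured for HOPX.

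AQP4 had 3, 5 and 2 reads in Vehicle, 1, 2 and 1 with VPA, and 1, 0 and 3 with VPA+Rapamycin. The VPA libraries were just below the Vehicle libraries in CPM (exact permutation test, two-sided p = 0.1, the smallest that 3 libraries against 3 allow). Without the filter, edgeR gave an adjusted p of 0.597 with VPA against Vehicle, 1 with VPA+Rapamycin against VPA and 0.649 with VPA+Rapamycin against Vehicle. The antisense gene AQP4-AS1 had a mean count of 1.44 against 2 for AQP4, so reads of the 2 genes may be shared. AGT had 0, 0 and 14 reads in Vehicle, 1, 5 and 8 with VPA, and 2, 1 and 5 with VPA+Rapamycin, and all 14 Vehicle reads came from replicate 3. Without the filter its adjusted p was 0.989, 0.833 and 0.751 in the same order.

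Other regulators and signals of gliogenesis moved in both directions. Of 40 such genes, all tested, 9 were higher and 9 lower with VPA against Vehicle (median log2 fold change -0.12), 3 were higher and 3 lower with VPA+Rapamycin against VPA (-0.02), and 6 were higher and 4 lower with VPA+Rapamycin against Vehicle (-0.03). Over all genes tested, 16.4% were higher and 15.7% lower in the first comparison, 3.01% and 3.73% in the second, and 9.81% and 9.22% in the third. Leaving out 1 library at a time gave 4 to 11 higher and 4 to 12 lower in the first, 0 to 6 higher and 3 to 5 lower in the second, and 2 to 6 higher and 1 to 7 lower in the third. The lowest count of both directions in the first came without VPA replicate 1, and in the second 0 were higher without VPA replicate 1 or 2 or VPA+Rapamycin replicate 3. In 1 fit of all 9 libraries 0 were higher in the second. HES5, a Notch target that keeps progenitors undifferentiated, had 5309, 4802 and 5144 reads in Vehicle, 9963, 8997 and 12275 with VPA, and 6535, 7635 and 5979 with VPA+Rapamycin. It rose with VPA by a log2 fold change of 0.95 (SE 0.10, edgeR adjusted p = 0.000114) and fell by 0.61 with VPA+Rapamycin against VPA (SE 0.088, adjusted p = 0.000444), with no overlap among the 3 groups. EGFR, a receptor of glial progenitors, rose with VPA (log2 fold change 1.16, SE 0.21, adjusted p = 0.00193). LIFR, the receptor through which LIF-type cytokines drive astrocyte genes, fell by 0.95 (SE 0.17, adjusted p = 0.00193), and the neurotrophin receptor NTRK2 fell by 0.57 (SE 0.11, adjusted p = 0.00316).

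Between VPA+Rapamycin and VPA, the Notch target HES1 fell by 1.14 (SE 0.16, adjusted p = 0.000389) and the BMP receptor BMPR1B fell by 0.79 (SE 0.13, adjusted p = 0.00135), while FGFR3, an early marker of astrocyte progenitors, rose by a log2 fold change of 0.35 (SE 0.079, adjusted p = 0.0112). In 1 fit of all 9 libraries BMPR1B and FGFR3 were not called (adjusted p = 0.132 and 0.145), and FGFR3 was also not called without VPA replicate 1 or 2 or VPA+Rapamycin replicate 3. Against Vehicle, VPA+Rapamycin SCOs were lower for NTRK2 (log2 fold change -0.59, adjusted p = 0.00624) and higher for LHX2 (2.78, adjusted p = 0.00982), ID1 (0.75, adjusted p = 0.0124) and EGFR (0.93, adjusted p = 0.0191). LHX2 was not called without VPA+Rapamycin replicate 1 (adjusted p = 0.0542), ID1 without Vehicle replicate 2 (0.0564) or VPA+Rapamycin replicate 2 (0.0597), and EGFR without Vehicle replicate 2 (0.068) or VPA+Rapamycin replicate 3 (0.0829). LHX2 encodes a progenitor transcription factor and ID1 is a target of BMP signalling. In Vehicle LHX2 had only 1, 4 and 4 reads, near the floor of 3, so the size of its change is uncertain. It had 27, 24 and 20 reads with VPA and 28, 22 and 17 with VPA+Rapamycin.

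A further list of astrocyte and radial glia genes, 28 of 30 in the tables tested, had 6 higher and 6 lower with VPA against Vehicle (median log2 fold change 0.07), 2 higher and 5 lower with VPA+Rapamycin against VPA (-0.08), and 4 higher and 5 lower with VPA+Rapamycin against Vehicle (0.02). The shares over all genes tested were 16.4% higher and 15.7% lower, 3.01% and 3.73%, and 9.81% and 9.22% in these comparisons. Leaving out 1 library at a time gave 4 to 9 genes of the list higher and 5 to 7 lower, 0 to 2 higher and 4 to 6 lower, and 2 to 5 higher and 2 to 6 lower in the same order. In the second comparison 0 were higher without VPA replicate 1 or 3 or VPA+Rapamycin replicate 3, and in the third 2 were higher without VPA+Rapamycin replicate 1 or 2 and 2 lower without VPA+Rapamycin replicate 1. BCAN, the matrix proteoglycan brevican, had 30, 25 and 44 reads in Vehicle, 253, 256 and 250 with VPA, and 136, 190 and 145 with VPA+Rapamycin, and the 3 groups did not overlap. Its log2 fold change was 2.86 (SE 0.23, edgeR adjusted p = 1.8e-05) with VPA against Vehicle, and 2.19 (SE 0.27, adjusted p = 0.000636) with VPA+Rapamycin against Vehicle. APOE, the lipid carrier of astrocytes, rose with VPA by 1.28 (SE 0.17, adjusted p = 0.000335) and fell by 0.81 with VPA+Rapamycin against VPA (SE 0.10, adjusted p = 9.86e-05). CLU, the secreted chaperone clusterin, rose with VPA by 1.06 (SE 0.11, adjusted p = 9.02e-05) and fell by 0.43 with VPA+Rapamycin against VPA (SE 0.080, adjusted p = 0.0033), and the latter was not called in 1 fit of all 9 libraries (adjusted p = 0.0785).

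FGFBP3, an FGF-binding protein, moved the other way, with 30896, 23710 and 23679 reads in Vehicle and 10382 to 11202 with VPA. It fell by 1.34 on the log2 scale with VPA (SE 0.10, adjusted p = 1.37e-05) and had a log2 fold change of -1.42 with VPA+Rapamycin (SE 0.13, adjusted p = 0.000201), both against Vehicle. The growth factor PTN fell by 1.10 (SE 0.16, adjusted p = 0.000444) with VPA+Rapamycin against VPA, and was not called in 1 fit of all 9 libraries (adjusted p = 0.376). PTN had 400, 287 and 2010 reads in Vehicle. With VPA against Vehicle its log2 fold change was 0.15 (edgeR adjusted p = 0.854), and 1.55 (edgeR adjusted p = 5.28e-07) without Vehicle replicate 3. SPARCL1, a synapse-organising protein of astrocytes, was lower with VPA+Rapamycin than in Vehicle (log2 fold change -1.26, SE 0.27, adjusted p = 0.0101). It was lowest with VPA, with a log2 fold change of -1.95 against Vehicle (adjusted p = 0.000337) and of 0.69 for VPA+Rapamycin against VPA (adjusted p = 0.0421), and the last of these was lost without VPA replicate 1 or 3 or VPA+Rapamycin replicate 2 or 3, with DESeq2 and in 1 fit. The summed level of the 30 genes was 7384 to 7554 CPM in Vehicle, 6070 to 6217 CPM with VPA and 5629 to 6221 CPM with VPA+Rapamycin. Abundant genes weigh most in this sum. FGFBP3 alone averaged 1618 CPM in Vehicle, 643.7 CPM with VPA and 607 CPM with VPA+Rapamycin. VIM averaged 1804 CPM in Vehicle and 1373 CPM with VPA. By calls, 6 genes of the list were higher and 6 lower with VPA. Genes of this list that progenitors also use, such as NES, SOX2 and PAX6, stand in the sum as well.

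Among 9 tested genes of the oligodendrocyte lineage, the other glial branch, 0 were higher and 2 lower with VPA against Vehicle, 2 were higher and 0 lower with VPA+Rapamycin against VPA, and 0 were higher and 2 lower with VPA+Rapamycin against Vehicle. The shares over all genes tested were 16.4% higher and 15.7% lower, 3.01% and 3.73%, and 9.81% and 9.22% in the same order. SOX10, the locus that carries the reporter cassette and a gene of oligodendrocytes and neural crest alike, had 347, 248 and 230 reads in Vehicle, 5, 10 and 9 with VPA, and 8, 37 and 63 with VPA+Rapamycin. OLIG1 had 129, 176 and 298 reads in Vehicle, 0, 89 and 10 with VPA, and 32, 111 and 683 with VPA+Rapamycin. Its spread within groups was wide, and its adjusted p was 0.0296 with VPA against Vehicle and 0.0392 with VPA+Rapamycin against VPA. The first OLIG1 call was lost without Vehicle replicate 2 or VPA replicate 1 or 3, and the second without VPA replicate 1 or 3 or VPA+Rapamycin replicate 3, and both were lost with DESeq2 (adjusted p = 0.281 and 0.415) and in 1 fit of all 9 libraries. SOX10 fell by 5.15 with VPA against Vehicle (adjusted p = 2.52e-06) and was called in every alternative, while its rise with VPA+Rapamycin against VPA (log2 fold change 2.19, adjusted p = 0.0345) was lost without any 1 of 5 of the 6 libraries and in 1 fit. Leaving out 1 library at a time gave 1 to 3 genes of this list lower with VPA, 0 to 3 higher with VPA+Rapamycin against VPA, and 1 to 2 lower with VPA+Rapamycin against Vehicle.

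Some markers of other cell types differed between the groups. The 13 mesenchyme markers summed to 187 to 360 CPM in Vehicle, 645 to 798 CPM with VPA and 315 to 433 CPM with VPA+Rapamycin, the same order of group means as for TNC, HOPX and S100B. Collagens made most of this sum. COL1A1 averaged 124.6, 270.2 and 155.5 CPM, and COL1A2 averaged 72.75, 319.5 and 127.8 CPM, in the same order. By contrast, COL3A1, COL6A3, PRRX1, TWIST1, LUM, DCN and POSTN had their most reads in Vehicle replicate 3. Over all genes tested, 16.4% were higher and 15.7% lower with VPA against Vehicle. The shares were 3.01% and 3.73% with VPA+Rapamycin against VPA, and 9.81% and 9.22% with VPA+Rapamycin against Vehicle. Of the mesenchyme markers tested, 3 of 12 were higher and 0 lower with VPA against Vehicle, 0 were higher and 6 of 12 lower with VPA+Rapamycin against VPA, and 1 of 9 was higher with VPA+Rapamycin against Vehicle. Without Vehicle replicate 3, 8 were higher with VPA and 3 with VPA+Rapamycin, both against Vehicle, and leaving out single libraries gave 3 to 5 lower with VPA+Rapamycin against VPA. In 1 fit of all 9 libraries 0 were lower there. COL1A2, a fibrillar collagen chain, had a log2 fold change of 2.12 (SE 0.34, edgeR adjusted p = 0.001) with VPA and fell by 1.32 with VPA+Rapamycin against VPA (SE 0.14, adjusted p = 1.08e-05). The defining factor PRRX1 was at 0 in Vehicle replicates 1 and 2, at 53 in Vehicle replicate 3, and at 19, 20 and 2 reads with VPA. GFAP, HES5, APOE, CLU and BCAN had the same order of group means as TNC, HOPX and S100B. NFIA, NFIB and FABP7 did not. The part of mesenchyme in the levels of TNC, HOPX and S100B was not tested.

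The 12 neural crest and Schwann cell precursor markers, of which S100B is a known companion, summed to 560 to 589 CPM in Vehicle, 522 to 576 CPM with VPA and 569 to 597 CPM with VPA+Rapamycin. Of 10 tested, 2 were higher and 4 lower with VPA against Vehicle, 2 were higher and 0 lower with VPA+Rapamycin against VPA, and 1 was higher and 2 lower with VPA+Rapamycin against Vehicle. Without Vehicle replicate 3, 3 crest markers were higher and 3 lower with VPA, and 2 were higher and 1 lower with VPA+Rapamycin, both against Vehicle. For this and the next 2 lists, the shares over all genes tested were 16.4% higher and 15.7% lower, 3.01% and 3.73%, and 9.81% and 9.22%. The glial receptor ERBB3 rose with VPA by a log2 fold change of 1.29 (SE 0.16, adjusted p = 0.000219). The 12 neuron markers summed to 1692 to 3040 CPM in Vehicle and 1521 to 1668 CPM with VPA, and 7 of 12 were lower with VPA. With VPA+Rapamycin they summed to 1629 to 1819 CPM, with 3 of 11 tested higher against VPA and 3 of 12 lower against Vehicle. Of 12 neural progenitor markers, which summed to 3108 to 3304 CPM with VPA+Rapamycin and 3359 to 3510 CPM with VPA, 2 were higher and 2 lower with VPA against Vehicle, 1 was higher and 3 lower with VPA+Rapamycin against VPA, and 1 was higher and 1 lower with VPA+Rapamycin against Vehicle. Leaving out 1 library at a time gave 5 to 10 neuron markers lower with VPA, 0 to 3 higher with VPA+Rapamycin against VPA and 1 to 6 lower with VPA+Rapamycin against Vehicle, and 1 to 3 progenitor markers lower with VPA+Rapamycin against VPA. The 2 crest markers higher with VPA+Rapamycin against VPA ranged from 0 to 3. The part of these cell types in the members' levels was not tested.

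**Figure D4:**
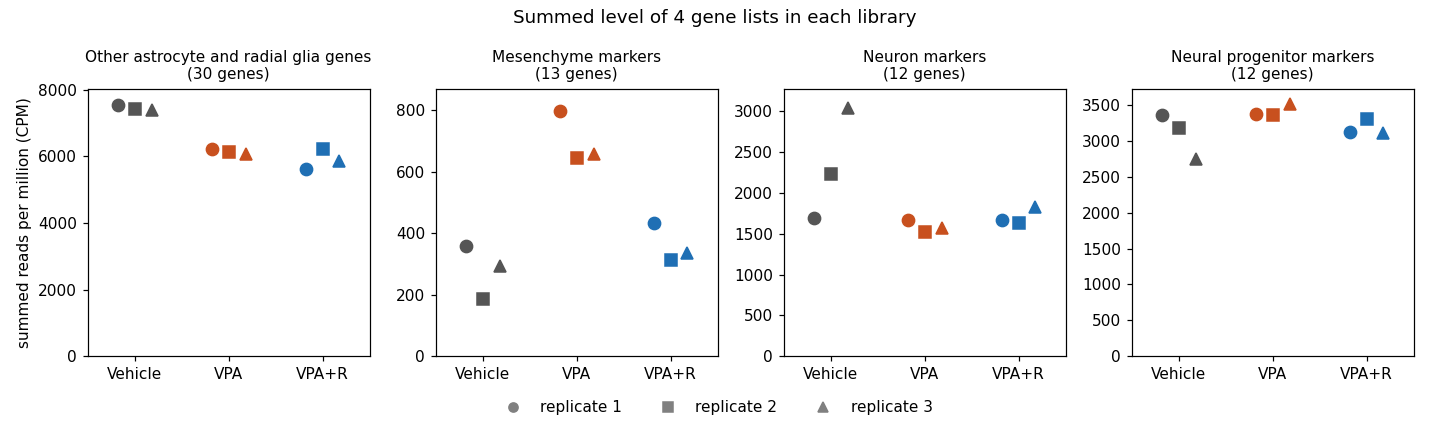
Summed CPM of 4 gene lists in each library, by group, with replicate numbers as symbols (VPA+R, VPA+Rapamycin). Abundant genes weigh most in each sum, among them FGFBP3 in the astrocyte and radial glia list and COL1A1 and COL1A2 in the mesenchyme list. Mesenchyme markers sum to 645 to 798 CPM in the 3 VPA libraries, above every other library, while Vehicle replicate 3 has the highest neuron sum (3040 CPM) and the lowest progenitor sum (2744 CPM).

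Genes with the most similar pattern were taken, for each of the 7 tested members, as the 3 with the highest Pearson r of log2 CPM over the 9 libraries among 16734 genes. The libraries fall into treatment groups and share depth, so these values describe likeness only. TNC was most like CD74 (r = 0.984), MICB (0.982) and AFAP1L1 (0.971), and S100B was most like ADAMTS3 (0.976), TES (0.975) and TNFRSF19 (0.967). FABP7 was similar to FDPS (0.963) and REC8 (0.959), and HOPX was most like AL359715.3 (0.961), DNAJB5 (0.959) and NANS (0.939). For the sparse genes the leading partners were DAB1 (0.969), ZNF277 (0.956) and CCNY (0.948) for NFIA, RPL7P1 (0.973), BAIAP3 (0.963) and RPL32 (0.958) for NFIB, and HLCS (0.955), GTF2E1 (0.929) and MORN2 (0.924) for GFAP. No member was among the leading 3 of another member.

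By position on GRCh38 the 10 protein-coding genes lie on 8 chromosomes. NFIB (chr9:14081843-14398983) and TNC (chr9:115019578-115118257) are on chromosome 9, and NFIA (chr1:60865259-61462793) and AGT (chr1:230702523-230714297) are on chromosome 1. NFIX is at chr19:12995608-13098796, GFAP at chr17:44903161-44916937, FABP7 at chr6:122779475-122784074, S100B at chr21:46598962-46605208, AQP4 at chr18:26852038-26865818 and HOPX at chr4:56647988-56681899. The summed exon length ran from 1448 bases for S100B to 12765 bases for NFIB, which is why counts were not compared between genes.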

How the data were processed

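Poly-A RNA of whole SCOs was sequenced in 9 libraries, grouped by the treatment label. Per the submitters' processing notes the tools were HISAT2 2.0.5 and featureCounts 1.5.0-p3, and the use of strand is not given in the sources used here. The authors deposited 1 table for each pair of groups, with unnormalized read counts per gene and with FPKM, which divides reads by library total and gene length, on GRCh38 with GENCODE gene models. Each table also holds 6 normalized columns, 18 in all, and the authors' own fold changes and p-values, none of which were used. Counts of a library were identical between tables.

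Tests on the counts used edgeR 4.0.16 under R 4.3.3 (TMM, filterByExpr, quasi-likelihood test, 6 libraries of a pair), with p-values adjusted over all genes tested at a threshold of 0.05. Standard errors derive from each estimate and its F value. CPM used TMM over the 9 libraries. Alternatives were DESeq2 1.42.0, DESeq2 size factors, no filter, 1 fit of the 9 libraries, the replicate block and leaving out each library. The scripts were tested on simulated data with known changes. The genes named are the 10 members, up to 4 called genes with the smallest p of a list per comparison, the 3 most similar genes, and overlapping genes above 10% of a member's mean count, and some that meet this rule are not reported here. Individual markers named for Vehicle replicate 3 and for the tissue check, and the promoter motifs, were chosen after values were seen. The members and lists were chosen with earlier results of these data known. Depth was 15290436 to 17417478 reads per library, and floors of 3 reads cover counting error only.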

Additional observations from a re-analysis of the deposited data

How the results depend on the processing

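The number of members called kept within 1.5 times of its value under DESeq2, DESeq2 size factors and no filter in all 3 comparisons, for both directions. In 1 fit of all 9 libraries, 0 members were lower with VPA+Rapamycin against VPA instead of 2, and over all genes 44 were higher and 69 lower instead of 522 and 646. With the replicate block, 4 members were lower in that comparison (FABP7, S100B, TNC and HOPX), and the block changed no other count of members. TNC had an adjusted p of 0.0348 and HOPX of 0.0439 there. Same-numbered deviations correlated between -0.067 and 0.155, and the labels do not say whether a code shared by equal numbers marks a clone.

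Leaving out each library in turn gave 1 to 4 members higher and 0 to 1 lower with VPA against Vehicle, 0 higher and 1 to 3 lower with VPA+Rapamycin against VPA, and 0 to 1 higher and 0 to 1 lower with VPA+Rapamycin against Vehicle. Over all genes the counts ran from 1791 to 3480 higher (2840 with all libraries) and 1599 to 3230 lower (2728), from 175 to 533 higher (522) and 297 to 670 lower (646), and from 761 to 2204 higher (1705) and 534 to 2110 lower (1602). Estimates changed sign for NFIA (from -0.21 to 0.80 on the log2 scale, with -0.09 without VPA replicate 3) and NFIB (from -0.0937 without VPA+Rapamycin replicate 2 to 0.41, with -0.08 without VPA replicate 3) with VPA+Rapamycin against VPA, and for S100B (from -0.30 to 1.84, with -0.03 without Vehicle replicate 2 and -0.04 without VPA+Rapamycin replicate 1) with VPA+Rapamycin against Vehicle, and none of these was called. The cause was not tested beyond the libraries named. With 3 or fewer reads in most libraries, changes of NFIX, AQP4 and AGT were not detectable at this depth.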
